A study of Mus musculus with 6 samples.

Results

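The 42 genes described here are receptors, adaptors, kinases, transcription factors and inhibitors of the NF-kB pathway, together with chemokines, cytokines and other inflammatory genes. Many of the latter are known to be switched on by the pathway. The 42 are among the 23725 genes in the count table and were listed by name. Grouped by role, 10 encode secreted chemokines and cytokines, 5 encode enzymes or adhesion molecules, and 27 were classed as pathway components. The last class includes Il6st, a receptor subunit of the IL-6 family rather than of NF-kB signalling itself.

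The counts come from 3T3-L1, a fibroblast line of mouse embryo used as a model of preadipocytes. On each of 3 plates the cells received extracellular vesicles (EVs) purified from the culture medium of MLP29 cells, a mouse liver progenitor line, on average 20 µg of EV protein for 24 h. On each of 3 control plates they received, for the same time, material purified in the same way from medium in which no cells had grown. All plates were kept in complete medium depleted of its own vesicles, every preparation was separate, and both cell types are single established lines, so that replicates measure the spread between plates and preparations. Libraries were numbered 1, 2 and 3 in the control group and 1, 2 and 4 in the EV group, and counts are given in that order below.

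NF-kB dimers are held in the cytoplasm by IkB proteins such as that encoded by Nfkbia. Receptors of the TNF, IL-1 and Toll-like families act through adaptors, ubiquitin ligases and the TAK1 kinase complex on the IkB kinases, which mark IkB for degradation so that the dimers enter the nucleus. There they bind kappa-B sites and induce chemokines, cytokines, adhesion molecules and their own inhibitors. In fibroblasts, chemokines of this kind draw monocytes and neutrophils into inflamed tissue, while Cxcl12 is made constitutively by stromal cells.

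Promoter sequence shows which of the secreted members carry a kappa-B site close to their start. The RefSeq promoter table (GRCm38.p6) held 30 of the 42 members. The 250 bases before each start were searched on both strands for the kappa-B consensus and for a related T-rich form. In the T-rich form, GGG and TTTCC are separated by a pair of any bases. The motifs overlap each other, but a match to the T-rich form need not match the consensus. At least 1 listed promoter held the T-rich form in 8 of the 30 members (26.7%), against 1.65% of 27025 genes, and the kappa-B consensus in 14 of the 30 (46.7%), against 8.23%. Ccl2, Ccl7, Cxcl5, Cxcl16, Vcam1, Tlr4, Tab1, Nfkb1, Relb, Nfkbiz and Ikbkb were not among the 30. Of 6 secreted members in the table, 5 had the consensus and 4 had the T-rich form. Of 20 components, 8 had the consensus and 4 had the T-rich form, and of 4 enzyme and adhesion genes 1 had the consensus and 0 had the T-rich form. Most of these genes are listed as known parts or targets of NF-kB signalling, so that the excess describes the list. A match is a run of letters and not evidence of binding in these cells. The following 5 promoters are shown because they belong to genes on which the results turn. Capitals mark matches to either motif. They are given 5′ to 3′ along the gene's own strand and end at the base before the start. Csf1 (chr3:107760470-107760719, minus strand) has a match 154 bases before its start. Cxcl1 (chr5:90890995-90891244, plus strand) and its neighbour Cxcl2 (chr5:90903649-90903898, plus strand) have a consensus match 71 and 97 bases before theirs. Each of them also has another marked stretch, which matches the T-rich form only. Nfkbia (chr12:55492648-55492897, minus strand) has a match at 29 bases. Cxcl12 (chr6:117168285-117168534, plus strand) has neither motif in this window.
Csf1: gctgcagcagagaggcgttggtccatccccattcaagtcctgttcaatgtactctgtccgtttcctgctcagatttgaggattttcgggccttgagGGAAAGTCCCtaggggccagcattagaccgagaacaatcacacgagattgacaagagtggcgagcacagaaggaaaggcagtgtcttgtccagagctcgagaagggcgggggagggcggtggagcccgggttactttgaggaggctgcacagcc
Cxcl1: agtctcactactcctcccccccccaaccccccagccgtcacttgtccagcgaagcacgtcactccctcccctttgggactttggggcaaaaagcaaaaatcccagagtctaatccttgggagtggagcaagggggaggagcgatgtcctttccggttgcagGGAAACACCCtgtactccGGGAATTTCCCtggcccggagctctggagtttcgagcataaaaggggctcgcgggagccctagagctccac
Cxcl2: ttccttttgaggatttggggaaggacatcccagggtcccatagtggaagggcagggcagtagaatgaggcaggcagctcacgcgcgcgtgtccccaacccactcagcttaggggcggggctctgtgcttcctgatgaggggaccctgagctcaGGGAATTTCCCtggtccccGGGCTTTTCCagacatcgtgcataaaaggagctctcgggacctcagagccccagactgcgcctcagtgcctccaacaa
Nfkbia: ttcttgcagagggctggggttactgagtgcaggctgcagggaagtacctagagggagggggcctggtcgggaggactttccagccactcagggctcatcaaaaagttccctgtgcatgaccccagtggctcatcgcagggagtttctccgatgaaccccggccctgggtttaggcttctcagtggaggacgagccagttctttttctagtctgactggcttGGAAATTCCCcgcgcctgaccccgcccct
Cxcl12: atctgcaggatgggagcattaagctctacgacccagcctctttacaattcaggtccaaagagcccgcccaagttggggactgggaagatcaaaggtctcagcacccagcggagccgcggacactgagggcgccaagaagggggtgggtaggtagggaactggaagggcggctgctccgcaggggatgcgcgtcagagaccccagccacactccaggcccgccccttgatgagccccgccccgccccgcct

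Most of the 42 genes were counted rarely. Libraries held between 508599 and 665465 counts, so that 3 counts, the limit below which a gene was treated as at the floor, stood for between 4.69 and 6.34 CPM, counts scaled to a common library size with edgeR's TMM factors over the tested genes. At most 3 counts in every library were listed for 7 of the 42 genes, against 55.4% of all genes in the table. They were Cxcl2, Il6, Ptgs2, Icam1, Tlr4, Traf6 and Tnfaip3. Cxcl2, a neutrophil chemokine, had a count of 0 in all 6 libraries. Ptgs2, the inducible cyclooxygenase of prostaglandin synthesis, was listed at 2 counts in all 3 controls and at 2, 1 and 0 with EVs. No fold change is given for these genes. Il6 had at most 2 counts per library, Icam1 and Tlr4 at most 1, and Tnfaip3, the A20 inhibitor of the pathway, and Traf6, a ubiquitin ligase, at most 3.

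The remaining 35 genes exceeded 3 counts in some library, and 14 of them passed edgeR's filter on low counts, which asks for 16.9 CPM (10 counts in a library of median size) in at least 3 libraries. Of these 14, Ccl2, Ccl7, Cxcl16 and Tab2 reached that level in every control library but not in every EV library. In bulk RNA, fewer cells that express a gene and less RNA per cell cannot be told apart. The strand setting of the read counting was not given in the sources used here, although the library kit keeps strand, and a count is therefore the count listed under a gene and not a measure of its mRNA alone. In 7 of the 42 genes, an exon shares bases with a gene annotated on the other strand, against 24.5% of all matched genes. Among the 14 tested, these are Cxcl16, Vcam1 and Nfkb2.

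In the EV libraries, 5 of the 14 genes tested were lower than in the control libraries and 0 were higher, while 9 did not pass the threshold (edgeR's quasi-likelihood test, Benjamini-Hochberg adjusted p under 0.05 over 5066 genes). Over all genes tested, 14.4% were lower and 7.68% higher. The 5 were the monocyte chemokines Ccl7 and Ccl2, the macrophage growth factor Csf1, and the chemokines Cxcl12 and Cxcl5, all of them secreted. Every EV library lay below every control library in these 5 and in Tab2, which is 6 of 14, against 21.5% of all genes tested. In 0 of 14 did every EV library lie above, against 17.9%, and 0 were higher at an unadjusted p under 0.05 or by DESeq2. The filter lets a gene pass on the libraries of its higher group, so that these counts are not independent of the direction. With a filter on the mean over all libraries, an alternative chosen after seeing the data, 15 members were tested and again 5 were lower, against 14.4% of the genes that filter kept. Without any filter 3 of 41 were lower, against 3.21% of genes, and with the Wald test of DESeq2 4 of 14 were lower, against 5.76%.

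**Figure D1:**
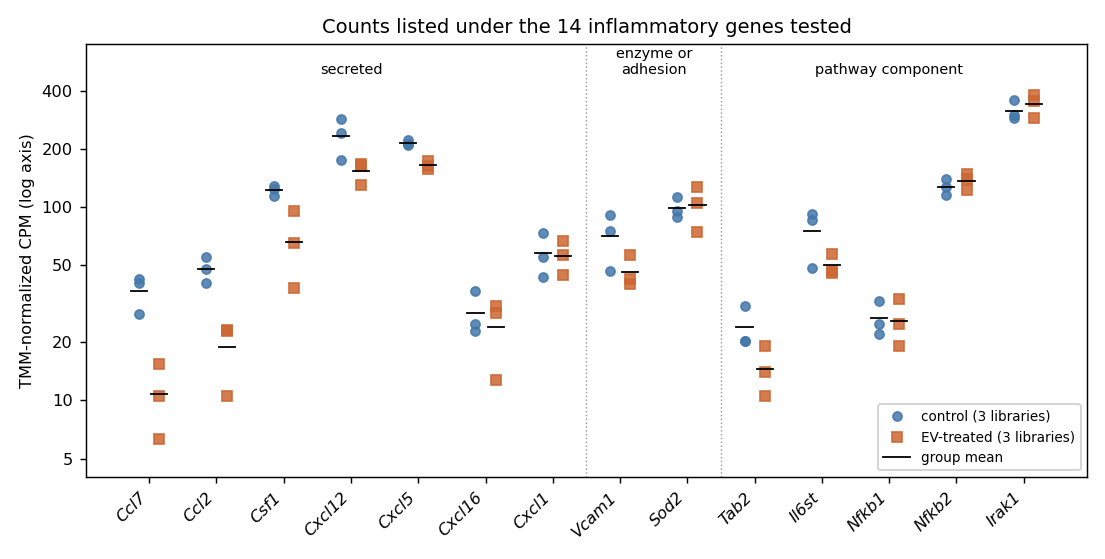
TMM-normalized CPM (log axis) listed under each of the 14 genes tested, with 1 point per library for 3 control (circles) and 3 EV-treated (squares) libraries, and bars at the group means. The groups stand apart in Ccl7, Ccl2, Csf1, Cxcl12, Cxcl5 and Tab2 and overlap in the other genes.

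Among the secreted genes, Ccl7 and Ccl2 fell most. Ccl7 (Entrez 20306, chr11:82045712-82047525), which draws monocytes through the receptor CCR2, was counted 22, 26 and 18 times in controls and 3, 6 and 8 times with EVs. Its mean level was 37.0 ± 7.74 CPM (SD, n = 3) in controls and 10.8 ± 4.50 CPM with EVs. No EV library came near the lowest control, and the log2 fold change was -1.74 (SE 0.37, adjusted p = 0.000469, edgeR), or 0.3 of the control level. Ccl2 (Entrez 20296, chr11:82035577-82037452), also named MCP-1 and read by the same receptor, lies 8.26 kb from Ccl7. It had 26, 34 and 26 counts in controls and 5, 13 and 12 with EVs. Its level was 48.0 ± 7.34 CPM in controls and 18.8 ± 7.15 CPM with EVs, so that the groups were well separated, with EV library 1 the lowest. The log2 fold change of Ccl2 was -1.31 (SE 0.31, edgeR adjusted p = 0.00146). Ccl2 and Ccl7 are related in sequence, and how reads shared by such copies were counted is not stated, so that the division of counts between them is uncertain.

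Csf1 (Entrez 12977, chr3:107741048-107760469), the growth factor that macrophages need to survive and whose promoter is shown above, was counted 70, 70 and 80 times in controls and 18, 37 and 50 times with EVs. Its level fell from 122.7 ± 7.96 CPM to 66.4 ± 28.9 CPM, a log2 fold change of -0.87 (SE 0.20, edgeR adjusted p = 0.00149). The controls were close together, and the EV libraries were spread, at 38.0, 65.2 and 95.9 CPM. The log2 fold change of Csf1 was -0.57 without EV library 1 and -1.17 without EV library 4, and it passed the threshold in both fits.

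Cxcl12 (Entrez 20315), the ligand of CXCR4 that retains haematopoietic cells in their niche, had 131, 175 and 113 counts in controls and 62, 93 and 87 with EVs. In CPM these were 241.8, 284.5 and 176.5 against 131.0, 163.8 and 166.8, so that the lowest control stood only a little above the highest EV library. The log2 fold change of Cxcl12 was -0.59 (SE 0.15, edgeR adjusted p = 0.00406). It passed the threshold in 11 of 13 alternatives but not without control library 2 (adjusted p = 0.0918) or without a filter on low counts (adjusted p = 0.0511).

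Cxcl5 (Entrez 20311, chr5:90759298-90761625), a neutrophil chemokine, had 121, 131 and 134 counts in controls and 77, 89 and 91 with EVs. Its 3 controls lay between 209.3 and 223.4 CPM and its EV libraries between 156.8 and 174.5 CPM, a narrow spread on both sides. The log2 fold change of Cxcl5 was -0.38 (SE 0.14, edgeR adjusted p = 0.0423), close to the threshold, and the call held in 4 of 13 alternatives. It was lost without control library 1 or 2 and without any 1 of the EV libraries, with adjusted p between 0.0793 and 0.167.

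Cxcl1 and Cxcl16 were tested and did not pass. Cxcl1 (Entrez 14825, chr5:90891245-90893121), a neutrophil chemokine 10.8 kb from Cxcl2 and 129.6 kb from Cxcl5, had 40, 34 and 28 counts in controls and 21, 32 and 35 with EVs. The groups overlapped almost wholly. The log2 fold change of Cxcl1 was -0.01 with a 95% interval from -0.49 to 0.46 (edgeR adjusted p = 0.972), and its sign changed between alternatives, among them DESeq2's size factors. Cxcl1, Cxcl2 and Cxcl5 belong to 1 family of related genes, which share the uncertainty named for Ccl2 and Ccl7. Cxcl16, a transmembrane chemokine that can be shed, had 20, 14 and 16 counts in controls and 6, 16 and 16 with EVs. Only EV library 1 was low, the log2 fold change was -0.19 (95% interval from -0.86 to 0.47, edgeR adjusted p = 0.702), and without that library it was 0.12. On the opposite strand, 552 bases of the exons of Cxcl16 are overlapped by Zmynd15, listed at between 3 and 9 counts. The part of that overlap in the counts of Cxcl16 was not tested.

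Of the cytokines besides Csf1, Il6 was at the floor and Lif, an IL-6 family cytokine, was above it but too low to test. Lif had 5, 4 and 6 counts in controls and 1, 1 and 2 with EVs. All 3 EV libraries were below all controls, and in the fit without a filter the adjusted p of Lif was 0.182 (edgeR).

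Of the enzyme and adhesion genes, 2 were tested and 0 passed with edgeR or DESeq2, where edgeR passed 22.1% of all genes tested. Vcam1 was at an unadjusted p of 0.0162 (edgeR). Vcam1, the adhesion molecule that binds leukocyte integrins, had 41, 56 and 30 counts in controls and 20, 32 and 21 with EVs. Control library 3 and EV library 2 overlapped, and the log2 fold change was -0.60 (SE 0.24, edgeR adjusted p = 0.0641). Vcam1 passed the threshold without control library 3 (adjusted p = 0.0104) and when scaled to the total library size (adjusted p = 0.0369). An antisense transcript, Gm43109, overlaps 61 bases of its exons. Sod2, the mitochondrial superoxide dismutase, is a well known NF-kB target with a kappa-B match 83 bases before its start. It had 52, 55 and 72 counts in controls and 60, 60 and 39 with EVs, which overlapped, with a log2 fold change of 0.03 (95% interval from -0.34 to 0.41, edgeR adjusted p = 0.917). Ptges, the prostaglandin E synthase downstream of Ptgs2, had 4, 5 and 8 counts in controls and 3, 11 and 4 with EVs, too few to test.

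**Figure D2:**
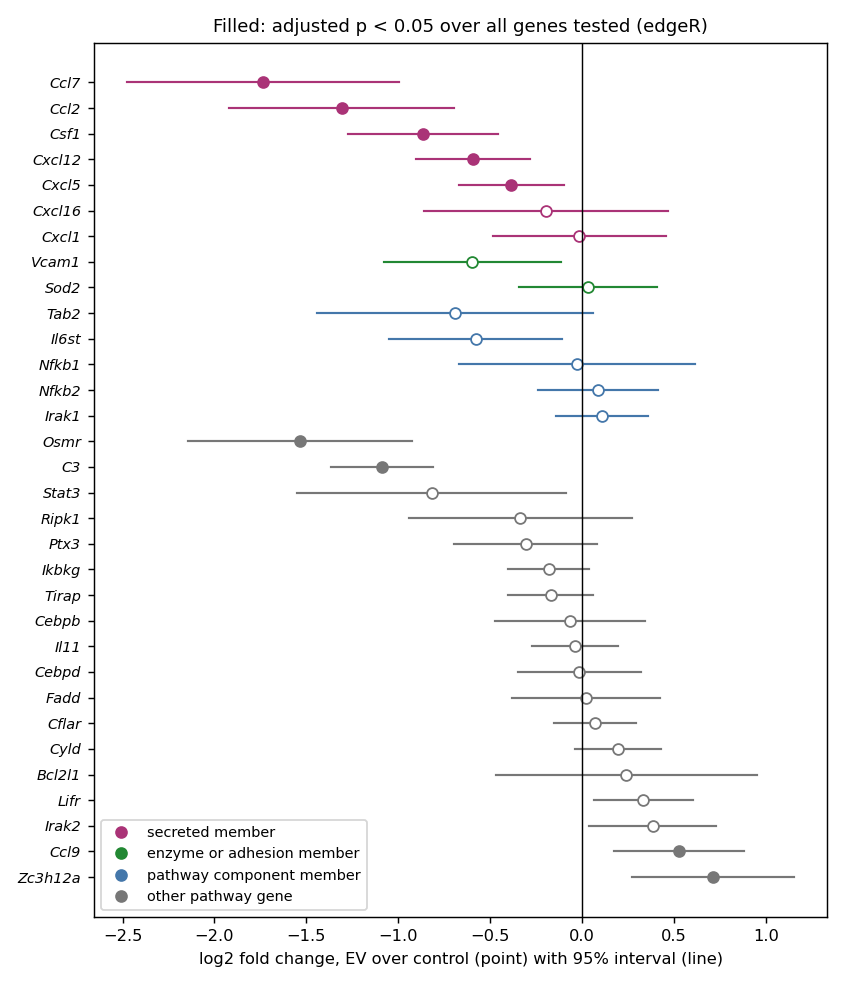
Log2 fold change of EV over control (point) with its 95% interval (line) from edgeR for the 14 members and the 18 other pathway genes tested, grouped by class, with filled points where the adjusted p over 5066 genes is under 0.05. Filled members are the 5 secreted genes Ccl7, Ccl2, Csf1, Cxcl12 and Cxcl5, whereas the intervals of Sod2, Nfkb1, Nfkb2 and Irak1 cross 0.

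Of the 27 pathway components, 5 could be tested and 0 passed in either direction with edgeR or DESeq2. Over all genes tested, 22.1% passed in either direction with edgeR, so that 0 of 5 says little about the components. At an unadjusted p under 0.05 there was 1, Il6st, where 36.2% of all genes tested were. Irak1, the kinase that relays IL-1 and Toll-like receptor signals, had 162, 221 and 185 counts in controls and 181, 164 and 186 with EVs. Nfkb2, the gene of p100 and p52, had 63, 78 and 90 counts in controls and 70, 70 and 73 with EVs. In both genes the groups overlapped. The log2 fold change was 0.11 for Irak1 (95% interval from -0.14 to 0.36, edgeR adjusted p = 0.547) and 0.09 for Nfkb2 (95% interval from -0.24 to 0.41, edgeR adjusted p = 0.728), and each was slightly below 0 when scaled to the total library size. For Nfkb2 the opposite strand holds Psd, whose exons overlap 299 bases and which was listed at between 692 and 843 counts, many more than Nfkb2, with a log2 fold change of 0.17 (edgeR adjusted p = 0.161). Its part in the counts of Nfkb2 was not tested. Nfkb1, the gene of p105 and p50, had 12, 20 and 16 counts in controls and 9, 19 and 13 with EVs, with a log2 fold change of -0.03 (95% interval from -0.67 to 0.62, edgeR adjusted p = 0.961).

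Il6st and Tab2 were the tested components with the lowest fold changes. Il6st, the gp130 subunit shared by the receptors of the IL-6 family, had 50, 53 and 31 counts in controls and 22, 26 and 30 with EVs. Control library 3 lay among the EV libraries and the other two controls lay well above them. The log2 fold change of Il6st was -0.58 (SE 0.23, edgeR adjusted p = 0.0648), and it passed without control library 3 (-0.86, adjusted p = 0.0081). Tab2, an adaptor that brings the TAK1 kinase to ubiquitin chains, had 11, 19 and 13 counts in controls and 5, 8 and 10 with EVs. The groups did not overlap, but with so few counts the log2 fold change of -0.69 had a 95% interval from -1.44 to 0.06 (edgeR adjusted p = 0.173).

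The other 22 components were too low to test, 3 of them at the floor. Summed over these 22, there were 394 counts in the control libraries and 195 in the EV libraries, which is between 164.0 and 263.4 CPM per control library and between 116.2 and 132.3 CPM per EV library. The sums did not overlap. Of the 22, 18 had a lower mean CPM with EVs, against 58.9% of the 15321 genes with any count, and in 6 all EV libraries lay below all controls, against 14.5% of those genes. The 15321 genes span all count levels, and the second share was 21.5% among the genes tested. These shares are thus no like comparison for 22 genes chosen by falling short of the filter. Nfkbia, the IkB alpha inhibitor and itself an NF-kB target with the promoter shown above, had 12, 10 and 6 counts in controls and 2, 3 and 4 with EVs. Rela, the p65 subunit with the transactivation domain, had 10, 10 and 6 against 1, 4 and 4. Both fell short of a call in a fit without a filter, where the log2 fold change was -1.32 for Nfkbia (edgeR adjusted p = 0.111) and -1.21 for Rela (edgeR adjusted p = 0.161).

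Receptors and adaptors were likewise low. Tnfrsf1a, the main TNF receptor, had 7, 19 and 16 counts in controls and 3, 7 and 8 with EVs, and Il1r1, the IL-1 receptor, had 9, 12 and 14 against 2, 6 and 9. Tlr2, a receptor for bacterial lipoproteins, had 5, 7 and 6 against 2, 2 and 2, and Traf2, an adaptor of TNF receptors, had 3, 9 and 2 against 1, 1 and 1. Groups were apart in Tlr2 and Traf2 and overlapped in Tnfrsf1a and Il1r1. Without a filter the unadjusted p was under 0.05 for 5 of the 22 (Nfkbia, Rela, Tnfrsf1a, Tlr2 and Traf2), against 19.5% of 15321 genes. After adjustment 0 of the 22 passed, against 5.57%.

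For the IkB kinases, Ikbkb had 8, 6 and 6 counts in controls and 2, 4 and 2 with EVs, and Chuk had 6, 6 and 6 against 2, 3 and 4, so that neither pair of groups overlapped. The TAK1 gene Map3k7 had 9, 17 and 11 counts in controls and 11, 7 and 6 with EVs, which overlapped. Tab1, the TAK1 partner, had at most 4 counts in any library. Among the inhibitors, Tnip1, a partner of A20, had 16, 12 and 8 counts in controls and 7, 8 and 4 with EVs, and Nfkbiz, a nuclear IkB protein, had 8, 12 and 4 against 3, 5 and 2. Both overlapped between the groups. Relb, Birc2, Birc3, Myd88, Nfkbib and Bcl3 never exceeded 8 counts, and their groups overlapped. Birc2 and Birc3, inhibitor-of-apoptosis ligases, are neighbouring related genes 10.3 kb apart, with the same uncertainty over shared reads.

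**Figure D3:**
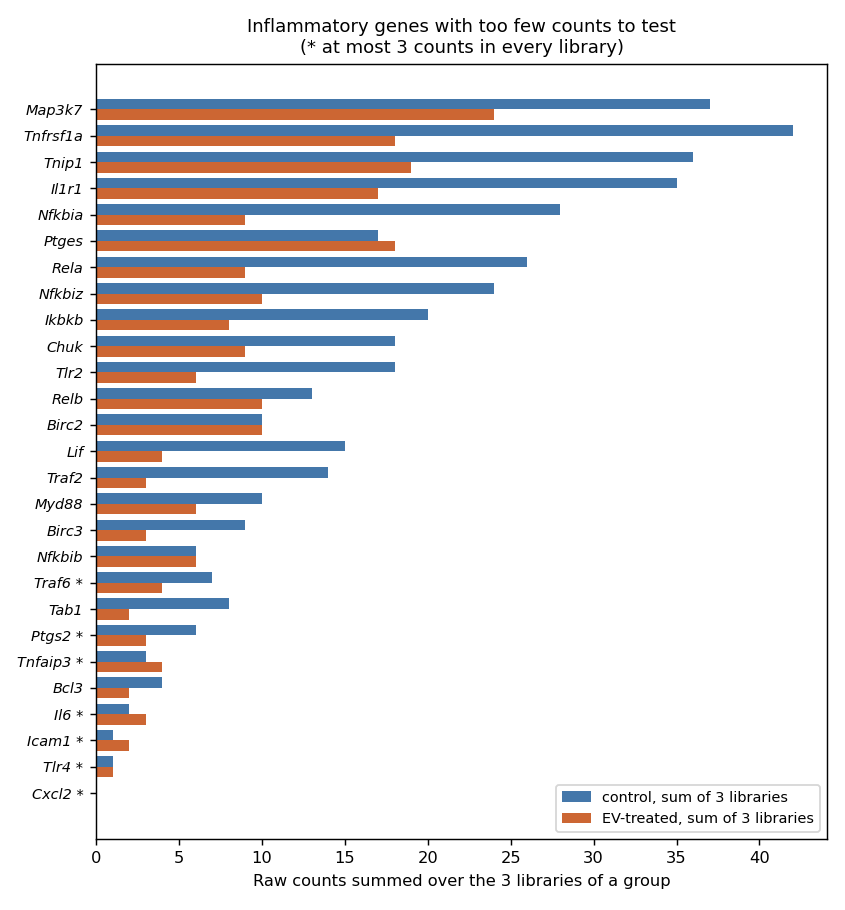
Raw counts, not scaled for depth, summed over the 3 control and the 3 EV-treated libraries for 27 of the 28 members too low to test, with an asterisk on those at most at 3 counts in every library. Control bars are longer for most, for example 28 against 9 counts for Nfkbia, and Cxcl2 has 0 in both.

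Set side by side, secreted genes and pathway components had different medians among the genes tested but differed less clearly in the counts. The median log2 fold change was -0.59 over the 7 secreted genes tested and -0.03 over the 5 components tested, beside 0.01 over all 5066 genes. The summed level of the 10 secreted genes was between 659.1 and 803.1 CPM in controls and between 410.0 and 577.2 CPM with EVs, without overlap. The summed level of all 27 components was between 687.2 and 899.1 CPM in controls and between 630.7 and 730.6 CPM with EVs, with overlap, and Irak1 and Nfkb2 made up most of it. Without a filter, the medians were -0.51 over 9 secreted genes and -0.61 over 27 components, beside -0.13 over all genes with any count, so that the gap between the classes was not present there. With any library but control library 2 left out, more components were tested and their median was between -0.57 and -0.49. Without EV library 1 it was -0.52, beside -0.46 for secreted genes. The tested components are the few with higher counts, and the summed counts of the others were lower with EVs without any of them being called. The difference between the classes was not tested, since genes of a class are not replicates.

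Levels of different genes can be compared only per length. The strand setting is not known and Actb had only between 36 and 162 counts per library. The order below therefore ranks the counts listed under each gene and may not rank their mRNA. Per kilobase of exon, Cxcl5 was highest of the 42 in controls, at 115.5 ± 3.92 CPM per kb (SD, n = 3), followed by Irak1 at 67.0 ± 8.07. Ccl7 at 46.2 ± 9.66 and Ccl2 at 42.1 ± 6.45 came next and did not differ from each other beyond their spread. Cxcl1 (30.7 ± 8.10), Cxcl12 (28.7 ± 6.66), Nfkb2 (27.9 ± 2.65) and Csf1 (23.2 ± 1.51) followed, each within the spread of its neighbour except Csf1 and Nfkb2, whose ranges of 1 SD did not meet. With EVs, Cxcl5 at 88.4 ± 4.84 and Irak1 at 72.7 ± 10.2 stayed on top, while Ccl2 at 16.5 ± 6.29 and Ccl7 at 13.4 ± 5.62 CPM per kb stood below Nfkb2 (29.9 ± 2.74) and Cxcl1 (29.8 ± 6.07).

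A further 71 genes were listed by role. They belong to the NF-kB pathway, its targets or linked inflammatory signals, among them IL-6 family receptors such as Osmr and Lifr. Of these, 23 were at the floor, against 55.4% of all genes in the table. Of the 18 tested, 2 were lower, 2 were higher and 14 did not pass, against 14.4% lower and 7.68% higher over all genes tested. Counts this small say little about the list. The median log2 fold change of the 18 was -0.03, beside 0.01 over all genes tested. C3, the central complement component, had 237, 307 and 210 counts in controls and 78, 115 and 116 with EVs, a log2 fold change of -1.09 (edgeR adjusted p = 1.26e-08). Osmr, the oncostatin M receptor that pairs with Il6st, had 20, 46 and 35 counts in controls and 10, 12 and 8 with EVs, a log2 fold change of -1.54 (edgeR adjusted p = 0.000169). In both genes the groups did not overlap. Zc3h12a, an RNase that degrades inflammatory mRNAs, was listed at 28 counts in all 3 controls and at 36, 42 and 42 with EVs, a log2 fold change of 0.71 (edgeR adjusted p = 0.015). It was not called by the DESeq2 Wald test (adjusted p = 0.0926) or without control library 2 (adjusted p = 0.078) or 3 (adjusted p = 0.0586). Ccl9, another monocyte chemokine, had 47, 48 and 72 counts in controls and 69, 74 and 66 with EVs, a log2 fold change of 0.53 (edgeR adjusted p = 0.0247). The groups of Ccl9 overlapped in raw counts but not in CPM, where controls reached 112.5 and the lowest EV library was at 126.6. Its call was lost in 6 of 13 alternatives, among them those without control library 1 (adjusted p = 0.117), control library 2 (adjusted p = 0.205) or EV library 1 (adjusted p = 0.0501).

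The other listed pathway genes with the highest counts did not pass the threshold. Of the 18 other pathway genes tested, 8 have an exon overlapped on the opposite strand, against 2263 of the 5066 genes tested. Among the 8 are Ikbkg, Tirap, Cebpb and Cebpd. The part of that overlap in their counts was not tested. The kinase scaffold Ikbkg had 272, 338 and 377 counts in controls and 195, 282 and 280 with EVs (log2 fold change -0.18, edgeR adjusted p = 0.226). The deubiquitinase Cyld had a log2 fold change of 0.20 (edgeR adjusted p = 0.214), the caspase-8 inhibitor Cflar 0.07 (adjusted p = 0.686) and the Toll-like receptor adaptor Tirap -0.17 (adjusted p = 0.281). Il11, an IL-6 family cytokine, had between 178 and 242 counts in every library (log2 fold change -0.04, edgeR adjusted p = 0.838). The LIF receptor gene Lifr had 0.33 (adjusted p = 0.0642), and the transcription factors Cebpb and Cebpd had -0.06 (adjusted p = 0.852) and -0.01 (adjusted p = 0.961). Ptx3, a secreted pattern recognition protein, had -0.31 (adjusted p = 0.251) and the survival gene Bcl2l1 0.24 (adjusted p = 0.652). Cx3cl1, Il1a, Ier3 and Tbk1 never exceeded 12 counts and did not pass the filter.

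Most of the tested genes that mark fibroblasts were lower in the same libraries as the 5 secreted genes. Of 10 fibroblast markers, 9 were tested and 6 were lower with EVs (Col1a1, Col1a2, Col3a1, Vim, Fn1 and Dcn), against 14.4% of all genes tested. Thy1, Pdgfrb and Pdgfra did not pass, with log2 fold changes of -0.54, -0.70 and -0.16 (edgeR adjusted p = 0.234, 0.122 and 0.593). Lum was at 0. The summed level of the 10 markers was between 2165 and 2553 CPM in controls and between 944.7 and 1198 CPM with EVs. Actb had between 36 and 162 counts per library. Of 8 macrophage markers, Ptprc, Adgre1 and Tyrobp were at 0 in every library, and the sum was between 3.69 and 13.0 CPM in controls and between 12.7 and 17.6 CPM with EVs. Of 4 endothelial markers the sum reached at most 4.69 CPM. Of 10 markers of liver progenitor or epithelial cells, the source of the EVs, 7 were at 0, among them Epcam and Krt19, and Spp1 was lower with EVs. Their sum was between 55.4 and 89.4 CPM in controls and between 30.7 and 38.0 CPM with EVs. Spp1 and Sox9 made up nearly all of it. Summed over the libraries of a group, Spp1 had 101 counts in controls and 23 with EVs, and Sox9, too low to test, had 32 and 28. Of 6 adipocyte markers 4 were at 0, and the sum was at most 13.0 CPM. The part of these markers in the counts of the chemokines was not tested.

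Direction also moved with the annotation of the opposite strand. Among all genes tested, the median log2 fold change was 0.16 in the 2263 with an exon overlapped on the opposite strand, of which 8.71% were lower and 13.3% higher. It was -0.19 in the 2747 without one, of which 19.4% were lower and 2.88% higher. All 5 members that fell, and both C3 and Osmr, have no such overlap, as do Irak1, Nfkb1, Sod2, Cxcl1, Il6st and Tab2 and the 2 other pathway genes that were higher, Zc3h12a and Ccl9. Beside that background, 5 of the 11 tested members without an overlap were lower and 0 were higher. The part of strand in these results was not tested.

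**Figure D4:**
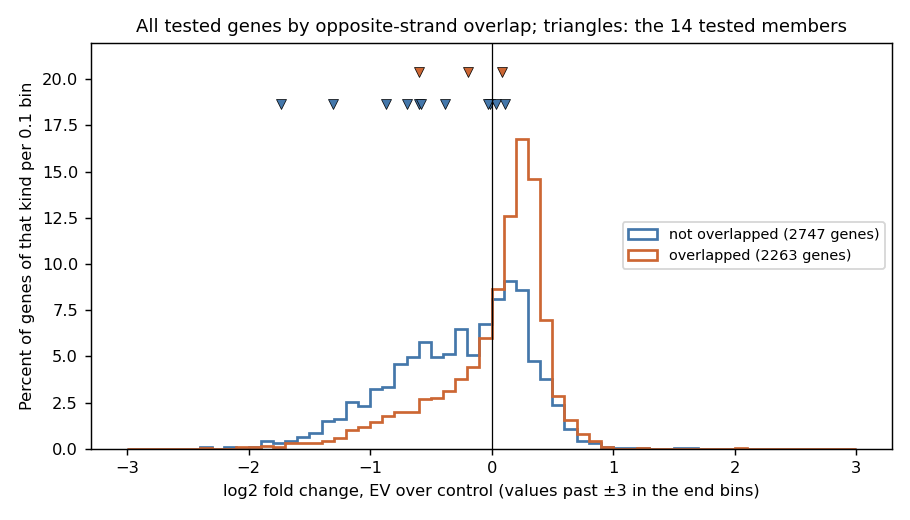
Percent of tested genes per 0.1 bin of log2 fold change for the 2263 genes with an exon overlapped on the opposite strand (orange) and the 2747 without (blue), with triangles at the 14 members in the same colours. The overlapped genes peak above 0, the others reach further below it, and the 3 overlapped members lie between -0.60 and 0.09.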

How the data were processed

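The authors checked reads with FastQC, aligned them to mm10 (GRCm38) with STAR, and used Rsubread to obtain a raw, unnormalized count for each Entrez gene, the table they deposited. Tool versions, strand setting and treatment of multi-mapping reads are not given in the sources used here. The deposited counts of all 23725 genes, in 3 control and 3 EV libraries with totals of 508599 to 665465, were fitted in R 4.3.3 by edgeR 4.0.16 (filterByExpr, TMM factors, quasi-likelihood test, no covariates, Benjamini-Hochberg over 5066 genes, two-sided, biological coefficient of variation 0.0779). CPM are scaled over tested genes. Each SE was taken as the size of the log2 fold change over the root of its F statistic. Coordinates come from RefSeq GRCm38, overlaps from GENCODE vM21. Libraries of a group differed by more than sampling noise (chi-square per degree of freedom 1.15 to 1.76).

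The members and lists were chosen with earlier results of these data known. The values of 1 member, a component too low to test, are not reported here singly and enter the counts and sums only. Full statistics were given for members past the threshold or with an unadjusted p under 0.05, counts for every member tested, and floor genes by name. Of the other pathway genes, those past the threshold and the 2 most counted of each role were named. The alternatives were DESeq2 1.42.0 (size factors, Wald test), total library size, other filters and floors, the replicate number as a block, members without opposite-strand overlap, and each library left out in turn. The fits were tested on simulated data.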

Additional observations from a re-analysis of the deposited data

How the results depend on the processing

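The count of 5 lower members was 3 without a filter and between 3 and 7 with each library left out, the 3 being without control library 2. The count of 0 higher members did not change in any alternative run, and Ccl7, Ccl2 and Csf1 were called in each alternative that could test them. The 2 lower genes among the other pathway genes became 1 with at least 10 counts in every library, which removes Osmr, 3 with the total library size or without a filter, and between 2 and 3 with each library left out. Without a filter the third was the kinase Map3k14 (3, 8 and 4 counts in controls and 0, 0 and 1 with EVs, edgeR adjusted p = 0.03), named here after its values were seen. The 2 higher ones became 1 with the total library size or with at least 10 counts in every library, 0 with the DESeq2 Wald test, and between 0 and 3 with each library left out. DESeq2's test called 5.76% of all genes lower, against 14.4%. The median log2 fold change of components (-0.03) was -0.61 without a filter and -0.30 without members that have an opposite-strand overlap. It was 0.0452 without control library 2, and between -0.57 and -0.49 with any other library left out. Fits with fewer libraries tested between 5 and 12 components. That of secreted members was between -0.80 and -0.46. With a floor of 1 count 3 members were at it, with 5 counts 12, and between 7 and 10 with each library left out. Scaling to the total library size moved the median of all genes from 0.01 to -0.10.

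Several values near 0 changed sign, and the cause was not tested. Cxcl1 was 0.0044 with DESeq2's size factors and 0.072 without a filter, and between -0.22 and 0.16 with each library left out. Nfkb1 was 0.0601 without a filter and between -0.24 and 0.18 with each library left out. Sod2 was -0.078 with the total library size and -0.0501 with at least 10 counts in every library, and between -0.0925 and 0.26 with each library left out. With the total library size, Irak1 was -0.0028 and Nfkb2 -0.0238. Cxcl16 was between -0.36 and 0.12 with each library left out.

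The groups share the replicate numbers 1 and 2 only. Deviations from the group means of samples with the same number correlated at 0.071 and 0.063 over genes. For samples with different numbers the correlations lay between -0.101 and 0.055. Values so small cannot decide whether the numbers pair the samples, since counting noise in each library lowers them. With the replicate number as a block, control library 3 and EV library 4 have no partner. The contrast then rests on the libraries numbered 1 and 2 of each group. In that fit 6 members and 3 other pathway genes were lower (13.9% of all genes were), and 0 members and 3 other pathway genes were higher. Vcam1 (-0.75, edgeR adjusted p = 0.0282) and Il6st (-0.95, edgeR adjusted p = 0.00509) were called, as they were without control library 3. Cxcl5 (edgeR adjusted p = 0.053) and Zc3h12a (edgeR adjusted p = 0.0794) were not called. Of the 28 members that the filter removed, 27 had a count and entered the fit without a filter, and 0 of them were called.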
